A study of Mus musculus with 4 samples.

Results

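The 9 complement genes C3, C1qa, C1qb, C1qc, C4b, Cfb, Serping1, C3ar1 and C5ar1 were examined for peaks of the transcription factor STAT3 in mouse spinal cord. The peaks came from ChIP-seq, in which chromatin bound by the protein is pulled down with an antibody and sequenced. A peak was assigned to a gene when its centre lay inside the gene or within 50 kb on either side, with gene positions from RefSeq (GRCm38.p6). C1qa, C1qb and C1qc are neighbours and were read as 1 locus, which gives 7 loci. By this rule 18 of the 36411 peaks of the SCI list and 30 of the 89039 peaks of the sham list belonged to the complement loci.

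SCI mice had a laminectomy and a moderate contusion of 60 kdyn at thoracic level 9, and sham mice a laminectomy at that level alone. All were C57BL/6, and tissue of the epicentre was taken 7 days after surgery, digested and filtered, with no sort for 1 cell type described. For either condition tissue of 3 mice was pooled into 1 STAT3 library and 1 input, and the 2 STAT3 peak lists were analysed. With 1 library per condition there are no replicates, so no difference between SCI and sham below has a replicate check or a test. Peak lists hold no expression values, so the cell types in the tissue could not be checked, and a peak cannot be assigned to astrocytes, microglia or another cell type.

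Complement is a cascade of plasma and tissue proteins that marks cells and debris for removal. In the classical branch, C1q binds a surface and leads to cleavage of C4 and then of C3. In the alternative branch, factor B joins cleaved C3 to amplify the reaction. The fragments C3a and C5a act on receptors of myeloid cells, and the C1 inhibitor restrains the start of the cascade. In the injured central nervous system, C1q is made chiefly by microglia and macrophages, and C3 is a gene of reactive astrocytes. STAT3 acts below interleukin-6 family receptors and binds paired half-sites of the form TTCNNNGAA.

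No deposited peak covered any of the promoters that could be examined. RefSeq promoter sequence (GRCm38.p6, 250 bases before to 50 after the annotated start) was at hand for C3, C1qb, C1qc, C3ar1 and C5ar1, all on the minus strand. C1qa, C4b, Cfb and Serping1 had no entry, and the SCI peak at one end of C1qa, described with its locus, is therefore not part of this count. Of 32851 promoter windows, 0.682% were overlapped by an SCI peak and 1.69% by a sham peak, so 0 of 5 is what most promoters of this size show. The window of C1qb had the closest SCI peak, 1945 bp away, and that of C5ar1 the closest sham peak, 1545 bp away. The 250 bases before the start of these 2 genes and of C3 are given here. Distances from a start given below use the annotated starts of C3, C1qc, C3ar1 and C5ar1. Capitals mark a match to TTC and GAA half-sites with 5 bases between them, a wider spacing than the usual 3.
C1qb, chr4:136886201-136886450, minus strand: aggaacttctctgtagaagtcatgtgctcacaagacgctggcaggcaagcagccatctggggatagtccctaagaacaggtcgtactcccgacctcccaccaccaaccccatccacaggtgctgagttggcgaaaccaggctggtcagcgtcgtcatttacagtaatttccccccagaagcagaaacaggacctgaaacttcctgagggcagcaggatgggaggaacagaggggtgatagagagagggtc
C5ar1, chr7:16259339-16259588, minus strand: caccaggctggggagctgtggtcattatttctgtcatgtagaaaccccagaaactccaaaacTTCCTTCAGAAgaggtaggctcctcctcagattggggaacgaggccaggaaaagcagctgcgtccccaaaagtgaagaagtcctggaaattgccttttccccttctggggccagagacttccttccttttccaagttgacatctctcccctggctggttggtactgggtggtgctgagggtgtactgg
C3, chr17:57228137-57228386, minus strand: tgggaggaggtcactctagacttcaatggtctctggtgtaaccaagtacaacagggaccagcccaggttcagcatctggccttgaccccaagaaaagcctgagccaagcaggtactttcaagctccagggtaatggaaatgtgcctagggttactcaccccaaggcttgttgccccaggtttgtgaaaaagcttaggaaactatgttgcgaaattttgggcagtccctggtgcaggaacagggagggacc

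The usual STAT motif TTCNNNGAA, which reads the same on both strands, was in 0 of the 5 promoters, and in 8.30% of all RefSeq promoters of this length. The spacing of 5 bases, also a palindrome, was in 1 of the 5, in C5ar1 from 188 bases before the start, and in 7.22% of all promoters. A spacing of 4 bases was in 0 of the 5 and in 6.95% of all. A match or its absence describes these letters in this window and says nothing of binding. The sequence under the peaks themselves was not analysed here.

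All 9 genes had a peak within 50 kb in both lists, which is common at this distance. Among 21887 protein-coding genes, 84.2% had an SCI peak and 95.6% a sham peak within 50 kb. In SCI the number of peaks per gene lay between 1, at Serping1, and 4, at C5ar1, and 6 of the 9 genes had more than the median protein-coding gene, which had 2. Of these 6, the C1q genes are counted through the same 3 SCI peaks, and by locus it was 4 of 7. The sham number lay between 3 and 6, and 2 of the 9 genes had more than the median of 5, while 5 had fewer, or 2 and 4 of the 7 loci. SCI peaks made up 37.5% of all 48 peaks at the loci (95% exact binomial interval 24.0 to 52.6%). Over chromosomes 1 to 19, X and Y the share was 29.0%, which lies within that interval. Intervals here cover counting error only, and sequencing depth is unknown because the lists give no read counts.

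Peaks of the complement loci were of ordinary strength in both lists. The authors' score, a value per peak that is 5 or more in every row, had a median of 7.73 at the loci in SCI, against 7.37 over all SCI peaks. In sham the median was 8.77 at the loci and 8.07 over all sham peaks. Whether scores of the 2 lists are on 1 scale is not given, so strength is described below by rank within a list. A peak in the top 10% ranks among the best 10% of its list. Of the SCI peaks, 2 of 18 were in the top 10% of their list, and of the sham peaks 2 of 30. All SCI peaks here were 164 bp wide and all sham peaks 190 bp, the widths of 99.4% and 99.01% of their lists.

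**Figure D1:**
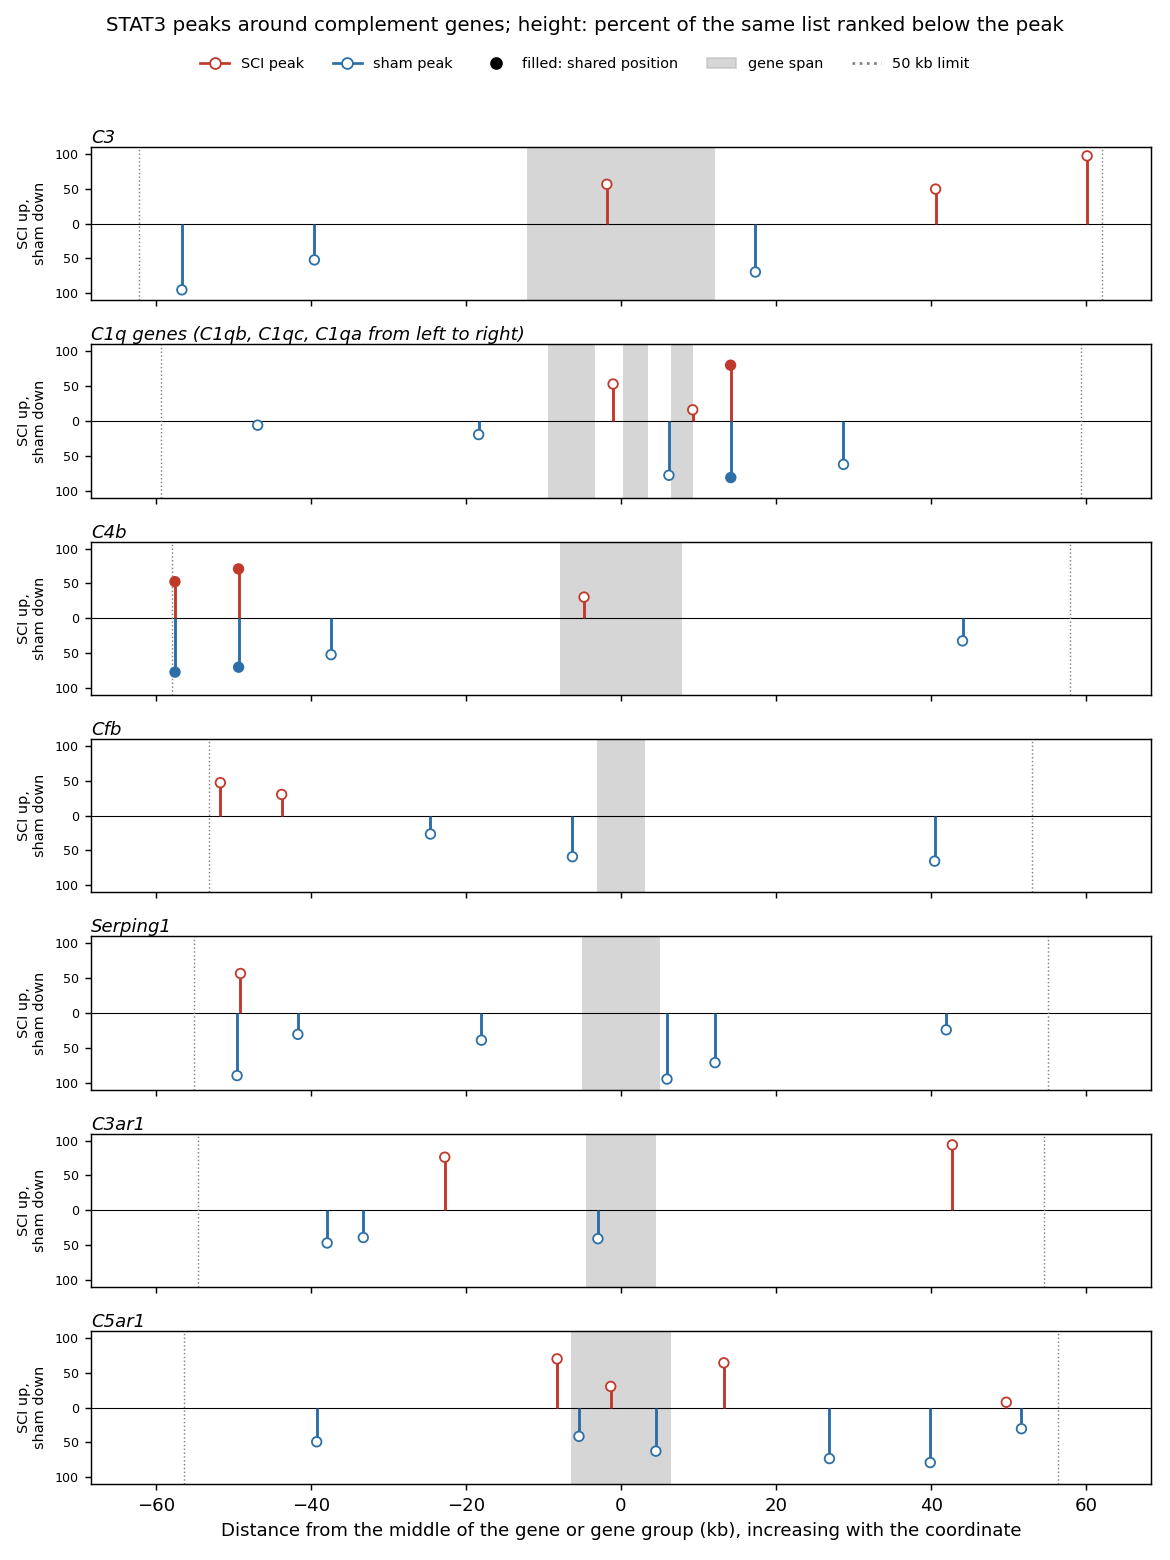
Peaks within 50 kb of the 7 complement loci, with distance from the middle of the gene or gene group in kb on the horizontal axis. Stems upward are SCI peaks and stems downward sham peaks, the height is the percent of the same list ranked below the peak, and filled heads are the 3 shared positions, 1 beside C1qa and 2 far to the left of C4b.

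C3, the protein on which all branches of the cascade converge, had 3 SCI and 3 sham peaks and no shared position. The gene (gene ID 12266) spans chr17:57203967-57228136. In SCI 1 peak lay inside the gene, at chr17:57214155-57214318, 13.9 kb past the start, with score 7.90 (top 43.6%). No sham peak lay inside C3, and the nearest one to it was 19.2 kb away. That sham peak, at chr17:57233296-57233485, lay 5.25 kb upstream of the start inside the neighbouring gene Trip10, with score 10.96 (top 30.5%). The other SCI peaks lay 28.5 kb upstream, inside Trip10, with a score of 7.34, and 48.0 kb upstream, in no gene, with a score of 21.4. That last peak, at chr17:57276085-57276248, ranked 1063 in SCI, in the top 2.92%, which was the best rank of any SCI peak at the loci. Its nearest protein-coding gene was not C3. In sham the best-ranked peak of the loci lay beyond the other end of C3, 44.5 kb outside it and inside Gm33566, with score 25.1 (top 4.89%).

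The C1q genes, which encode the 3 chains of the recognition protein of the classical branch, had 3 SCI and 5 sham peaks, with 1 shared position. They lie side by side on chromosome 4, C1qb (gene ID 12260) at chr4:136880126-136886200, C1qc (gene ID 12262) at chr4:136889801-136892936 and C1qa (gene ID 12259) at chr4:136895916-136898844. The shared position lay 4.78 kb outside C1qa, in no gene. There the SCI peak (chr4:136903547-136903710) scored 11.3 (top 20.04%). The sham peak there (chr4:136903563-136903752) scored 14.3 (top 18.7%). These were the best-ranked peaks of the locus in each list, and their centres were 29 bp apart.

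The other peaks among the C1q genes were at different places in the 2 lists. SCI had a peak between C1qb and C1qc, at chr4:136888395-136888558, with score 7.57 (top 47.1%). It lay 4.44 kb downstream of the start of C1qc, and on the upstream side of C1qb, 1945 bp from the promoter window of that gene. SCI also had a peak inside C1qa, with its centre 97.5 bp from the gene's higher coordinate end. As background, the C1q genes are transcribed in the same direction, and C1qb and C1qc are on the minus strand, on which this end would be the start of C1qa. The strand of C1qa itself is not in the gene table used. This peak, at chr4:136898665-136898828, was weak, with score 5.32 (top 84.1%). Sham had none inside any C1q gene, but had 1 between C1qc and C1qa, with its centre 241.5 bp outside C1qa. That peak, at chr4:136895580-136895769, scored 13.1 (top 22.0%), and its centre was 3.07 kb from the nearest SCI peak. The remaining sham peaks lay 8.99 and 37.5 kb beyond C1qb and 19.3 kb beyond C1qa, with scores of 5.81, 5 and 9.69.

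C4b and Cfb lie on chromosome 17 in the class III part of the major histocompatibility complex. C4b (gene ID 12268, chr17:34728139-34743902) encodes complement component C4, and Cfb (gene ID 14962, chr17:34856374-34862514) encodes factor B. C4b had 3 SCI and 4 sham peaks and held 1 SCI peak, at chr17:34731185-34731348, with score 5.93 (top 69.7%). No sham peak lay inside C4b, and the nearest to its SCI peak was 32.6 kb away. Both shared positions of this locus lay inside Tnxb, 41.4 and 49.6 kb outside C4b. The nearer had an SCI score of 9.55 (top 29.2%) and a sham score of 11.1 (top 29.7%), and the farther an SCI score of 7.50 (top 47.5%) and a sham score of 12.9 (top 22.6%). Tnxb was also their nearest protein-coding gene, and with a window of 5 kb they no longer belong to C4b.

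Cfb had 2 SCI and 3 sham peaks, none inside the gene. Its SCI peaks lay 40.7 kb away inside C4a, with a score of 5.93, and 48.6 kb away in no gene, with a score of 7.00. The nearest sham peak lay 3.19 kb from Cfb, inside Nelfe, at chr17:34853094-34853283, with score 9.18 (top 41.0%). The others in sham lay inside Stk19, 21.5 kb away, and inside Ehmt2, 37.4 kb away. The better of the SCI peaks at Cfb was in the top 52.8% of its list. C4a is a close copy of C4b, listed as a transcribed pseudogene, and Tnxa a partial copy of Tnxb, so the peaks inside C4b, C4a, Tnxb and Tnxa are uncertain where reads could map to either copy.

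Serping1, the C1 inhibitor that blocks the proteases of the C1 complex, had the most uneven numbers, with 1 SCI and 6 sham peaks. The gene (gene ID 12258) spans chr2:84765360-84775444. Its single SCI peak lay 44.1 kb away, at chr2:84721147-84721310, with score 7.93 (top 43.4%). A sham peak lay next to it without overlap, with centres 328 bp apart, and scored 19.1 (top 10.03%). Within 10 kb of Serping1 only sham had peaks. The peak at chr2:84776251-84776440, with its centre 901.5 bp outside Serping1, scored 24.8, ranked 4501 and was in the top 5.06%. The nearest SCI peak to it was 55.1 kb away. A further sham peak 7.09 kb outside the gene, inside Gm36596, scored 11.4, and those at 12.9, 36.6 and 36.9 kb had scores of 7.00, 6.56 and 5.93. By number of sham peaks Serping1 was ordinary, since 48.3% of protein-coding genes had at least as many, and 84.2% had at least 1 SCI peak.

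C3ar1, the receptor of the C3a fragment, had a peak inside it in sham alone. The gene (gene ID 12267, chr6:122847140-122856157) had 2 SCI and 3 sham peaks and no shared position. Its SCI peaks lay 18.2 kb away inside Foxj2, with score 10.4 (top 23.9%), and 38.2 kb upstream of the start, with score 17.1 (top 6.22%). The upstream one, at chr6:122894308-122894471, ranked 2264 and was the other SCI peak of the loci in the top 10%. The sham peak inside the gene, at chr6:122848589-122848778, lay 7.47 kb past the start and scored 7.20 (top 59.2%). Sham peaks 28.7 and 33.4 kb away had scores of 7.00 and 7.82, so no sham peak at C3ar1 was in the upper 50% of its list.

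C5ar1, the receptor of the C5a fragment, was the member that held peaks of both lists, at different places. The gene (gene ID 12273, chr7:16246743-16259540) had 4 SCI and 6 sham peaks. Its SCI peak inside the gene, at chr7:16251745-16251908, lay 7.51 kb past the start, with score 5.93 (top 69.7%). Inside the gene sham had 2 peaks, 1.69 kb past the start at chr7:16257555-16257744 and 11.6 kb past it at chr7:16247636-16247825. Their scores were 9.71 (top 37.5%) and 7.28 (top 58.7%), and the nearest of them was 4.10 kb from the SCI peak inside. The best-ranked SCI peak, at chr7:16244830-16244993, lay 1.83 kb outside C5ar1 and 757.5 bp outside C5ar2, the second C5a receptor gene, with score 9.40 (top 30.1%). Another SCI peak lay 7.08 kb upstream of the start with a score of 8.71, and the fourth, 43.3 kb outside, scored 5. The other sham peaks lay 20.5 to 45.3 kb outside the gene, with scores between 6.49 and 13.4.

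Read over the whole set, 3 genes held an SCI peak and no sham peak inside them, C3, C1qa and C4b. This was the case for 5.28% of protein-coding genes, and for a mean of 6.26% over genes in the same 10% classes of gene length. Read as 1 locus, the C1q group also held a sham peak, between C1qc and C1qa. Among loci only C3 and C4b therefore had this pattern. C3ar1 had the reverse pattern, found in 22.9% of protein-coding genes, and C5ar1 held both kinds, found in 28.1%. C1qb, C1qc, Cfb and Serping1 held neither, as did 43.7%. Means over genes in the same length classes were 21.6% for sham alone, 8.18% for both and 64.0% for neither. With the sham list shortened to its best-ranked peaks, as many as in SCI, the same 3 genes held an SCI peak alone, and the background was 11.5%. Inside the gene, 33.4% of protein-coding genes had an SCI peak and 51.0% a sham peak. The C1q genes and Cfb are short, in the 3 shortest of the 10 length classes. Of the 4 SCI peaks inside members, 3 (those in C1qa, C4b and C5ar1) had a score s for which ((s + 1)/2) squared was a whole number within 0.0001, and none of the 3 sham peaks inside did. Only the SCI peak in C3 lacked this form among the 4. Such scores were held by 33.1% of all SCI peaks, and 4.82% of these were shared with sham, against 21.6% of all SCI peaks. At the loci as a whole, 6 of 18 SCI peaks (33.3%) and 5 of 30 sham peaks (16.7%) had them. The share over all sham peaks was not computed. Whether such scores mark less reliable peaks was not tested.

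Within 5 kb of the gene, 6 of the 9 had an SCI peak and 6 a sham peak. The background was 43.9% of protein-coding genes in SCI and 66.7% in sham, or a mean of 28.8 and 54.4% over genes in the same length classes. SCI alone was found at C3, C1qb and C4b, a pattern of 6.51% of protein-coding genes, and sham alone at Cfb, Serping1 and C3ar1, a pattern of 29.3%. C1qa, C1qc and C5ar1 had both, as did 37.3%, and no member had neither, as did 26.8%. With lists of equal length C3, C1qb and C4b still had SCI alone, but so did 15.1% of protein-coding genes. Sham alone was then left at Serping1, against 16.2% of protein-coding genes, and Cfb and C3ar1 had neither. The SCI count includes C1qb and C1qc through 1 and the same peak. The sham count includes C1qc through a peak that was also counted at C1qa. By locus, an SCI peak lay within 5 kb of C3, the C1q group, C4b and C5ar1. A sham peak lay within 5 kb of the C1q group, Cfb, Serping1, C3ar1 and C5ar1. Read this way, only C3 and C4b had SCI alone. The genes were also chosen with earlier results of these peaks known, so the excess over the length background is a description. At 10 kb, 52.2% of protein-coding genes had an SCI peak and 76.8% a sham peak. The sham peaks near C3 and C1qb are then reached as well. C4b is the only member with an SCI peak alone at 10 kb, a pattern of 5.94% of protein-coding genes (length mean 7.89%). Cfb, Serping1 and C3ar1 had a sham peak alone, a pattern of 30.6% (length mean 37.2%). With lists of equal length C4b kept SCI alone at 10 kb, but so did 16.1% of protein-coding genes (length mean 17.7%). Serping1 was then the only member with sham alone, against 17.8% (length mean 20.4%), and Cfb and C3ar1 had neither.

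**Figure D2:**
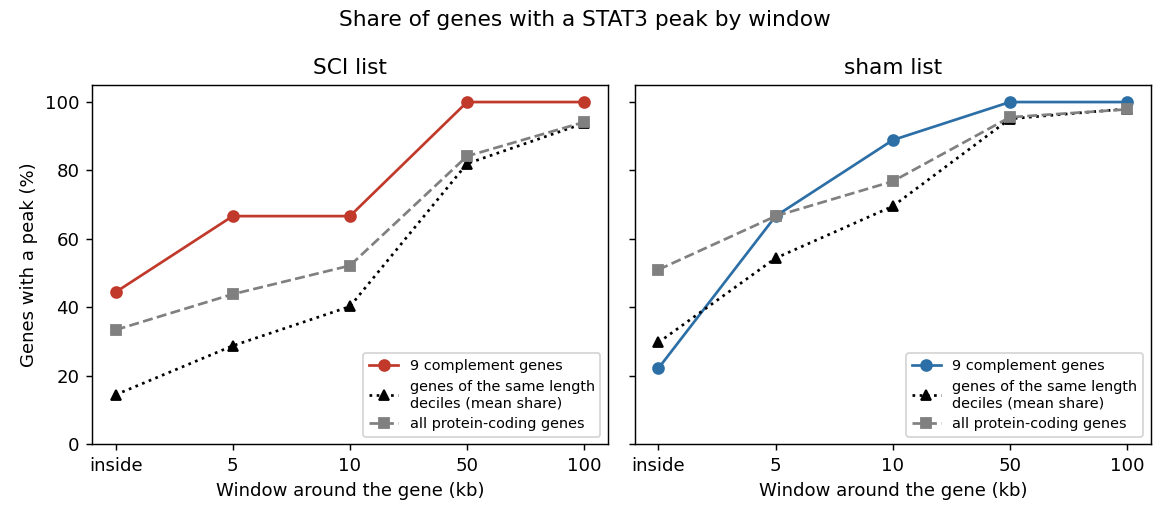
Percent of genes with a peak against the window around the gene in kb, SCI in the left panel and sham in the right. Lines show the 9 complement genes, the mean share of genes in the same length classes, and all protein-coding genes. Inside the gene, 44.4% of the 9 had an SCI peak against a length share of 14.4%, and 22.2% had a sham peak against 29.7%.

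Few positions at the complement loci were shared, as elsewhere. A position was shared when peaks of both lists overlapped by at least 1 bp, which held for 3 of the 18 SCI peaks, 16.7% (95% exact interval 3.58 to 41.4%), against 21.6% of all SCI peaks. On the sham side it held for 3 of 30, 10% (2.11 to 26.5%), against 8.84% of all sham peaks. None of the shared positions lay inside a complement gene, and the one beside C1qa was the only one with a complement gene as its nearest protein-coding gene. A complement gene was the nearest protein-coding gene for 6 of the 18 SCI and 9 of the 30 sham peaks. The limit of 50 kb falls beside strong peaks in places. A sham peak with score 22.1 (top 6.99%) lay 50.2 kb from Cfb and was left out, while an SCI peak 49.6 kb from C4b with a score of 7.50 was kept.

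A wider list of 44 other complement genes, all found in the annotation, gave the setting. Within 5 kb 26 had an SCI peak and 31 a sham peak, 59.1 and 70.5%, against means of 50.9 and 75.3% over genes in the same length classes. Both lists had a peak at 20 of them, SCI alone at 6 (13.6%), sham alone at 11 (25%) and neither at 7. Among protein-coding genes 37.3% had both, 6.51% SCI alone, 29.3% sham alone and 26.8% neither. A shared position within 5 kb was found at 7 genes, Masp1, Fcnb, Cd59a, Cd93, Csmd1, Csmd2 and Csmd3, 15.9% of the list, and at 16.5% of protein-coding genes. Csmd1, Csmd2 and Csmd3, membrane proteins with complement control domains, are very long and held 22, 6 and 12 SCI peaks and 35, 17 and 35 sham peaks.

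In the lectin branch, Masp1, a protease that starts this branch, held the best-ranked SCI peak of the wider list. It lay at chr16:23500500-23500663 with a score of 22.5, ranked 887 and was in the top 2.44%. The sham peak over it, at chr16:23500479-23500668, scored 19.4 (top 9.66%). Fcna, a ficolin that recognises sugars, held a sham peak with score 38.6 (top 1.14%) and its best SCI peak at another place, with score 10.3 (top 24.2%). At Fcnb, a second ficolin gene, the shared peaks lay 3.37 kb (SCI) and 3.54 kb (sham) outside the gene and touched at their edges, with scores of 14.5 in the top 10.3% and 6.46 in the top 70.4%. With genes ordered by their best SCI peak, the next after Masp1 were Csmd3 (score 17.7, top 5.59%, shared) and Csmd1 (score 16.9, top 6.46%, not shared). Both of these peaks lay inside the gene.

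Among receptors and regulators, Cd93, a surface protein first described as a C1q receptor, held the best-ranked sham peak of the wider list. At chr2:148438860-148438971 this sham peak scored 81.2, ranked 60 and was in the top 0.0674%. It was 112 bp wide, narrower than the usual sham peak. The SCI peak over it, at chr2:148438828-148438991, scored 7.29 (top 51.0%). Csmd1 held the third-ranked sham peak of this list, with score 33.1 (top 2.02%). In Cd59a, an inhibitor of the membrane attack complex, the single SCI peak scored 5.89 and overlapped 1 of 3 sham peaks.

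The terminal pathway, which forms the membrane attack complex, had fewer genes with an SCI peak than with a sham peak, and was picked out after its values were seen. A sham peak lay within 5 kb of all 7 (Hc, C6, C7, C8a, C8b, C8g and C9), against a mean of 84.6% over genes in the same length classes. An SCI peak lay within 5 kb of 2 of them, Hc and C9, against a mean of 62.5%. Within 50 kb 3 of the 7 had an SCI peak, against a mean of 90.1% over genes in the same length classes. C7, C8a, C8b and C8g had no SCI peak within 50 kb, and their nearest ones were 91.5, 167, 140 and 51.5 kb away. C8a and C8b are neighbours and share that gap. With lists of equal length 2 of the 7 had an SCI peak and 5 a sham peak, against length means of 62.5 and 62.8%. Regulators had an SCI peak and a sham peak at 12 of 15 each, against length means of 61.6% in SCI and 83.2% in sham. With lists of equal length they stood at 12 and 7, against 61.6 and 62.5%. Lectin genes had an SCI peak and a sham peak at 5 of 8 each, against 43.2% in SCI and 70.2% in sham. Equal lists gave 5 and 4, against 43.2 and 45.3%. Receptors had an SCI peak at 5 of 8 and a sham peak at 6 of 8, against 43.1 and 70.6%. For receptors equal lists gave 5 and 1, against 43.1 and 45.2%. The alternative branch, with 2 genes in this list, had an SCI peak at 1 and a sham peak at 0, against 21.2 and 42.6%. Of the classical genes C1ra, C1s1, C2 and C4a, C4a alone had a peak within 5 kb, in both lists, so 1 of 4 against 36.2% in SCI and 65.5% in sham. Counts of the alternative and classical genes stayed the same with lists of equal length.

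**Figure D3:**
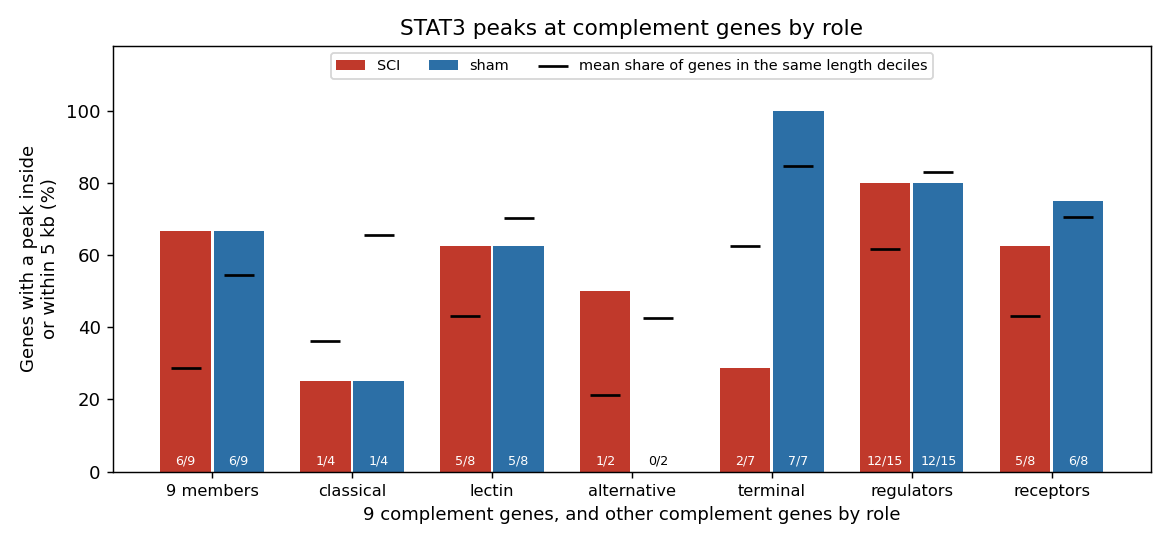
Percent of genes with a peak inside or within 5 kb, for the 9 complement genes and for 44 other complement genes by role, with SCI bars left of sham bars and the counts at the foot of each bar. Horizontal marks are the mean share of genes in the same length classes, and the terminal genes stand at 2 of 7 in SCI and 7 of 7 in sham.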

How the data were processed

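STAT3 ChIP-seq peak lists of SCI and sham spinal cord were used, and the title of a sample shows which list is its own; inputs were not used. Reads were aligned with Bowtie2 to mm10, per the submitters' processing notes. How peaks were called is not given in the sources. The deposited score is the authors' own value per peak, used to describe and rank peaks within a list, with rank 1 the highest and ties at the same rank. Gene spans came from the RefSeq table of GRCm38.p6, which shares its main chromosomes with mm10. The table holds no exons, so a peak is placed inside a gene or beside it. Ends of genes were used without strand, except for the 5 members with a promoter entry.

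Backgrounds are shares over all 21887 protein-coding genes, over 10 equal classes of gene length, or over 32851 promoter windows. No test between conditions was run, since each has 1 library. The members, the wider list and the windows were chosen with earlier results of these data known. All 9 members are named. Of the wider list, the text names genes with a shared position within 5 kb and the 3 best-ranked per condition, and it says where a gene was picked after its values were seen. Counts in windows and sharing were tested on simulated data with planted peaks, and every planted answer came back. Alternatives were other windows, higher scores, lists of equal length, other rules for sharing and other motif spacings. The scripts ran in Python 3.11.15 with pandas 2.3.3, numpy 2.4.6, matplotlib 3.10.9 and scipy 1.17.1.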

Additional observations from a re-analysis of the deposited data

How the results depend on the processing

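The number of peaks at the loci followed the window. Counts were 5 SCI and 4 sham peaks inside the genes or the C1q group, 7 and 7 within 5 kb, 8 and 10 within 10 kb, and 35 and 59 within 100 kb, against 18 and 30 within 50 kb. With peaks below the median score of their list left out they were 11 and 17, and with lists of equal length 18 and 14. Genes with a peak were 4 SCI and 2 sham of 9 inside the gene, and between 6 and 9 in both lists under every other setting tried. In the wider list 22 genes had an SCI peak and 25 a sham peak inside, and 26 had an SCI peak within 5 kb, against 40 and 44 within 50 kb. Shared positions were 1 within 5 kb and 6 within 100 kb, and 3 or 4 under the other rules. The motif count was 1 with 5 bases between the half-sites, against 0. With a 5 kb window the best peak stayed the same for 4 of 18 pairs of gene and condition, changed for 8, and 6 had none. The 3 genes with an SCI peak alone inside kept it with lists of equal length, a comparison added after seeing the data, where the background was 11.5% of protein-coding genes and not 5.28%; the sham peak in C3ar1 was then gone. Within 5 kb, lists of equal length left sham alone at 1 member and not 3, and in the wider list gave SCI alone at 12 genes and not 6 and sham alone at 4 and not 11, also added after seeing the data. No paired analysis was possible because each condition has 1 library. Unknown depth limits any reading of an absent peak.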

Other observations

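The 6 genes of the wider complement list with an SCI peak within 5 kb and no sham peak there were Colec10, Cfd, Cfi, Sez6, Itgb2 and Vsig4, named here after their values were seen. Itgb2, the common beta chain of the complement receptors CR3 and CR4, had 3 SCI peaks, of which 2 lay inside it, and its nearest sham peak was 26.2 kb away. The best of them, at chr10:77555294-77555457, scored 7.00 (top 52.8%). Among other receptor genes of the list, Itgam had 4 sham peaks and no SCI peak within 5 kb. Itgax, also named after its values were seen, had 1 peak in either list. Vsig4, a receptor for C3 fragments on tissue macrophages, held 1 SCI peak with score 8.17 (top 39.7%), with its nearest sham peak 17.4 kb away. At Cfd, the gene of factor D, the SCI peak lay 4.59 kb away with score 12.6 (top 15.2%), and at Cfi, the gene of factor I, inside the gene with a score of 8.05. The 11 genes with a sham peak alone within 5 kb, also named after their values were seen, were Colec11, C6, C7, C8a, C8b, C8g, C4bp, Clu, Cr2, Itgam and Calr. SCI alone made up 13.6% of the wider list, against 6.51% of protein-coding genes, and sham alone 25% of the list, against 29.3%. With lists of equal length SCI alone was found at 12 genes, 27.3% of the list, and sham alone at 4, 9.09%. The shares of protein-coding genes were then 15.1 and 16.2%, and the means over genes in the same length classes 16.4 and 17.8%. Of the 12, Cd46 and Cr1l, named after their values were seen, were counted through 1 and the same SCI peak. The SCI peak of C5ar2 was also counted at C5ar1. With 1 library per condition none of these shares has a replicate check.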
